A study of Mus musculus with 4 samples.

Results

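The IER and GADD45 genes, 6 stress and growth factor response genes, were followed in mouse embryonic fibroblasts, cells grown from mouse embryos, with and without a telomerase transgene. They are Ier2, Ier3, Ier5, Gadd45a, Gadd45b and Gadd45g, of 12393 genes that the array names by 1 symbol. All 10 probe sets, groups of short probes that read 1 transcript region, whose annotation holds exactly 1 of these symbols were taken. Ier5 and Gadd45b had 3 each and the other genes 1 each. The genes were chosen by their signals in the comparison of mTert with control described here, so that comparison is given for them as a description, with no test.

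RNA was read on 4 Affymetrix MOE430A arrays, 1 per sample. Every sample carried the retroviral vector pBabePuro, which confers puromycin resistance. In the 2 control samples (control 1 and control 2) it was empty. In the 2 mTert samples (mTert 1 and mTert 2) it carried mouse Tert, the catalytic subunit of telomerase, which in such vectors is driven by the viral promoter and not by the gene's own. Strain, passage, age of the embryos and whether the cultures were separate are not given in the sources used here.

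IER genes (immediate early response) are switched on within minutes to a few hours by serum, growth factors, heat and DNA damage, and their messages are short-lived. GADD45 genes (growth arrest and DNA damage) encode small acidic nuclear proteins that bind the kinase MAP3K4 above p38 and JNK, the replication clamp PCNA, the inhibitor p21 and the CDK1 and cyclin B complex. In fibroblasts both families are known for their rapid rise after stress and stimulation, with Gadd45a best known as a target of p53 and Gadd45b as a target of NF-kappaB and TGF-beta.

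The start regions of the members that differed most between the groups are shown first, with Gadd45a, which differed little, beside them. Each is the 200 bases that end just before the transcript start, 5′ to 3′ on the gene's strand, from the RefSeq promoter table (GRCm38.p6), which held 5 of the 6 genes (Ier2 was not matched). Gadd45b lies at chr10:80929891-80930090 (+), Gadd45g at chr13:51846475-51846674 (+), Ier3 at chr17:35821513-35821712 (+) and Gadd45a at chr6:67037408-67037607 (-). Capitals mark matches to TATAA or TATAAA on the gene's strand and to CCAAT, the E-box CACGTG, the octamer core ATTTGCAT and the NF-kappaB consensus on either strand.
Gadd45b: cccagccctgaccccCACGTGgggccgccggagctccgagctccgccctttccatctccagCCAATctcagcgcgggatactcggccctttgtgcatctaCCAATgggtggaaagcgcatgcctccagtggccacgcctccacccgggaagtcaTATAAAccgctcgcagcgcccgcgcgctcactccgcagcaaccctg
Gadd45g: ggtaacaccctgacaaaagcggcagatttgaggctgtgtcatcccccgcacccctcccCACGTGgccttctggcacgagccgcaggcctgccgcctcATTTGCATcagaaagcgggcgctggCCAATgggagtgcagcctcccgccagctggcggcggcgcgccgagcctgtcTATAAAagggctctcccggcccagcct
Ier3: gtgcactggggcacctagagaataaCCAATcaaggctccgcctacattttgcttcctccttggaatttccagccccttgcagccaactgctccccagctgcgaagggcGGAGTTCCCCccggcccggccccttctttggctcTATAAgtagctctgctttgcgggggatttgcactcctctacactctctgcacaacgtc
Gadd45a: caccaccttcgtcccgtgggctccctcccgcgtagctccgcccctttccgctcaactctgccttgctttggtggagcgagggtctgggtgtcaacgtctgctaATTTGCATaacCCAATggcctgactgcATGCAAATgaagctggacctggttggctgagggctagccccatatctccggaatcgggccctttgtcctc

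A CCAAT box stood in all 5 windows read, Ier5 included, and in 29.3% of the 32851 windows of the same length in the table. TATAA, the core of the TATA box, stood in 4 windows (Gadd45b, Gadd45g, Ier3 and Ier5) and in 13% of all windows. Its first base lay 46 bases before the start in Gadd45b, 27 in Gadd45g, 58 in Ier3 and 26 in Ier5 (chr1:155099637-155099836, -). No TATAA was in the window of Gadd45a. The longer TATAAA, which contains TATAA, was in Gadd45b and Gadd45g and in 6.27% of all windows.

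The same pair, Gadd45b and Gadd45g, held the E-box CACGTG (5.26% of all windows). Gadd45a held ATTTGCAT on each strand and Gadd45g held it once (1.38% of all windows). Ier3, a known NF-kappaB target, held a match to the NF-kappaB consensus between 92 and 83 bases before the start (3.18% of all windows). The window of Gadd45b, also named above as an NF-kappaB target, held no such match. The GC box GGGCGG, searched on both strands, was in Gadd45a, Gadd45b, Ier3 and Ier5 (31% of all windows). Searches on both strands for TGACG and for the cAMP response element TGACGTCA that contains it, for the AP-1 sites TGAGTCA and TGACTCA, for the EGR sites GCGGGGGCG and GCGTGGGCG, for the heat shock element GAANNTTC and for the CArG box found 0 matches in the 5 windows. These motifs were picked with the sequences in view, and a match is a string of letters, not a shown site.

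Tert, the transgene's gene, was called absent on both control arrays, with signals of 128 and 84.7, and present on both mTert arrays, with 1164.4 and 845.6. The controls were at background, so the mTert signal was at least 9.53-fold higher as a ratio of geometric means. Between 51.6% and 54.4% of the probe sets that are not controls were called present per array. Control 1 had 5 µg of cRNA on record, against 15 µg for each other array, and the 3' to 5' signal ratio of actin lay between 1.14 and 1.22. All 10 fibroblast markers (such as Col1a1, Pdgfra and Thy1) were present on all arrays. Their summed signal, which the brightest markers dominate, was 90489.6 and 86958.4 in control and 87151.1 and 82788.6 in mTert. Thy1 and Dcn were lower on arrays numbered 2 in both groups. Their log2 differences, number 2 minus number 1, were -0.68 and -0.51 (limma adjusted p = 0.00136 and 0.015). Pdgfra was higher on number 2, at 0.23 (limma adjusted p = 0.518), and the median over the 10 was -0.050. Macrophage markers moved with the array number, and their median difference between mTert and control was 0.049. All 8 were higher on both arrays numbered 2, with Cd14, Tyrobp and Fcer1g absent on both arrays numbered 1, and their summed signals were 2612.5 and 2817.2 on control 1 and mTert 1 against 10279.6 and 10741.7 on control 2 and mTert 2. The 2 arrays of a group thus differed in these markers, in the same direction in both groups. Of the 4 endothelial, 4 epithelial, 3 skeletal muscle and 3 neural markers, 2, 3, 2 and 3 were absent on all arrays. Among the rest, endothelial Tek was present on 4 arrays and Kdr on 2, skeletal muscle Des on 3 and epithelial Cdh1 on 1.

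Of the 10 member probe sets 8 were called present on all 4 arrays, 1 on 3 arrays and 1 on none. The 9 that were present on at least 2 arrays entered the fit with all other such probe sets, 12396 in all. Signals are in arbitrary units on a linear scale and are compared only within a probe set. Differences are mTert minus control on the log2 scale, each with the standard error (SE) of limma. The lowest differences among the members belonged to Gadd45b, Gadd45g, Ier3 and Ier2.

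Ier2, also known as pip92, encodes a short-lived nuclear protein induced by serum and growth factors. Its probe set 1416442_at, called present on every array, read 5637.5 on control 1, 5772.5 on control 2, 4373.4 on mTert 1 and 3957.9 on mTert 2. Each mTert array was lower than either control, and the 2 controls lay close together. The means were 5705 ± 95.5 (SD, n = 2) in control and 4166 ± 294 (SD, n = 2) in mTert, a difference of -0.46 (SE 0.09), or 72.9% of the control level. Of the 12396 tested probe sets 193 had a lower difference. In these bulk samples fewer cells with a transcript and less transcript per cell cannot be told apart, here and for every member below.

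Ier3, also known as IEX-1, encodes a membrane-anchored substrate of ERK that modulates apoptosis. Its probe set 1419647_a_at, which matches more than 1 transcript of the gene, read 3849.8 on control 1, 3160.7 on control 2, 2467.7 on mTert 1 and 2174.4 on mTert 2. The groups did not overlap, though the controls lay further apart than those of Ier2. The means were 3505 ± 487 (SD, n = 2) and 2321 ± 207 (SD, n = 2), a difference of -0.59 (SE 0.13). There were 85 tested probe sets with a lower difference. The Ier3 difference was -0.45 without control 1, the array with 5 µg of cRNA, and -0.73 without control 2.

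Ier5, a slower member of the immediate early class that encodes a partner of the heat shock factor HSF1 and of PP2A, gave no uniform picture over its 3 probe sets. The probe set present on all arrays, 1417612_at, read 1606.1 on control 1, 1344.8 on control 2, 1358.8 on mTert 1 and 1173.7 on mTert 2. Here mTert 1 lay above control 2, so the groups overlapped. The difference was -0.22 (SE 0.14), and it was -0.09 without control 1 and -0.35 without control 2.

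Its second probe set, 1417613_at, was called absent on every array and was not tested. It read 485.9 on control 1, 432.4 on control 2, 424.3 on mTert 1 and 376.1 on mTert 2, all without a signal distinct from background. The third, 1460009_at, was absent on control 2 and read 90.3, 61.4, 98.7 and 72.9 in the same order. It stood on the other side, at 0.19 (SE 0.33), but -0.09 without control 2 and -0.03 without mTert 1.

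Gadd45b, also known as MyD118, encodes the GADD45 protein that also inhibits the JNK kinase MKK7. Its probe set 1450971_at, present on every array, read 2489.2 on control 1, 2619.4 on control 2, 1646.4 on mTert 1 and 1311.9 on mTert 2. The controls lay close together and the mTert signals far below them. The means were 2554 ± 92.1 (SD, n = 2) and 1479 ± 237 (SD, n = 2), a difference of -0.80 (SE 0.14), or 57.5% of the control level. Among the 12396 tested probe sets 24 had a lower difference. Leaving out 1 array at a time gave -0.96 to -0.63.

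The other Gadd45b probe sets differed less. On 1449773_s_at, a probe set whose probes can match transcripts of more than 1 gene, the signals were 1157.8 and 870.5 in control and 701.3 and 707.2 in mTert. The groups did not overlap, and the difference was -0.51 (SE 0.17), or -0.31 without control 1 and -0.72 without control 2. On 1420197_at the signals were 224.8 and 261.2 in control and 241 and 213 in mTert, which overlapped. Its difference was -0.10 (SE 0.19), and it was 0.01 without control 2.

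Gadd45g, also known as CR6, encodes the GADD45 protein induced by cytokines. Its probe set 1453851_a_at, present on every array, read 839 on control 1, 707.7 on control 2, 447.8 on mTert 1 and 528.9 on mTert 2. The groups did not overlap, and within the mTert group it was mTert 1 that was lower, unlike in Gadd45b 1450971_at, Ier2 and Ier3. The means were 773 ± 92.8 (SD, n = 2) and 488 ± 57.3 (SD, n = 2), a difference of -0.66 (SE 0.16). There were 52 tested probe sets with a lower difference. Leaving out 1 array at a time gave -0.79 to -0.54.

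Gadd45a, the member induced by p53, differed little between the groups, as did Gadd45b 1420197_at. Its probe set 1449519_at, present on every array, read 400 on control 1, 347 on control 2, 324.8 on mTert 1 and 369.8 on mTert 2. The mTert 2 signal lay above control 2, so the groups overlapped. The means were 374 ± 37.5 (SD, n = 2) and 347 ± 31.8 (SD, n = 2), a difference of -0.10 (SE 0.17) that was -0.002 without control 1. Cdkn1a, the p53 target that encodes p21, a GADD45 partner, stood at 0.03 (SE 0.16), with signals of 3353 and 2500.8 in control and 3154.8 and 2762.7 in mTert.

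**Figure D1:**
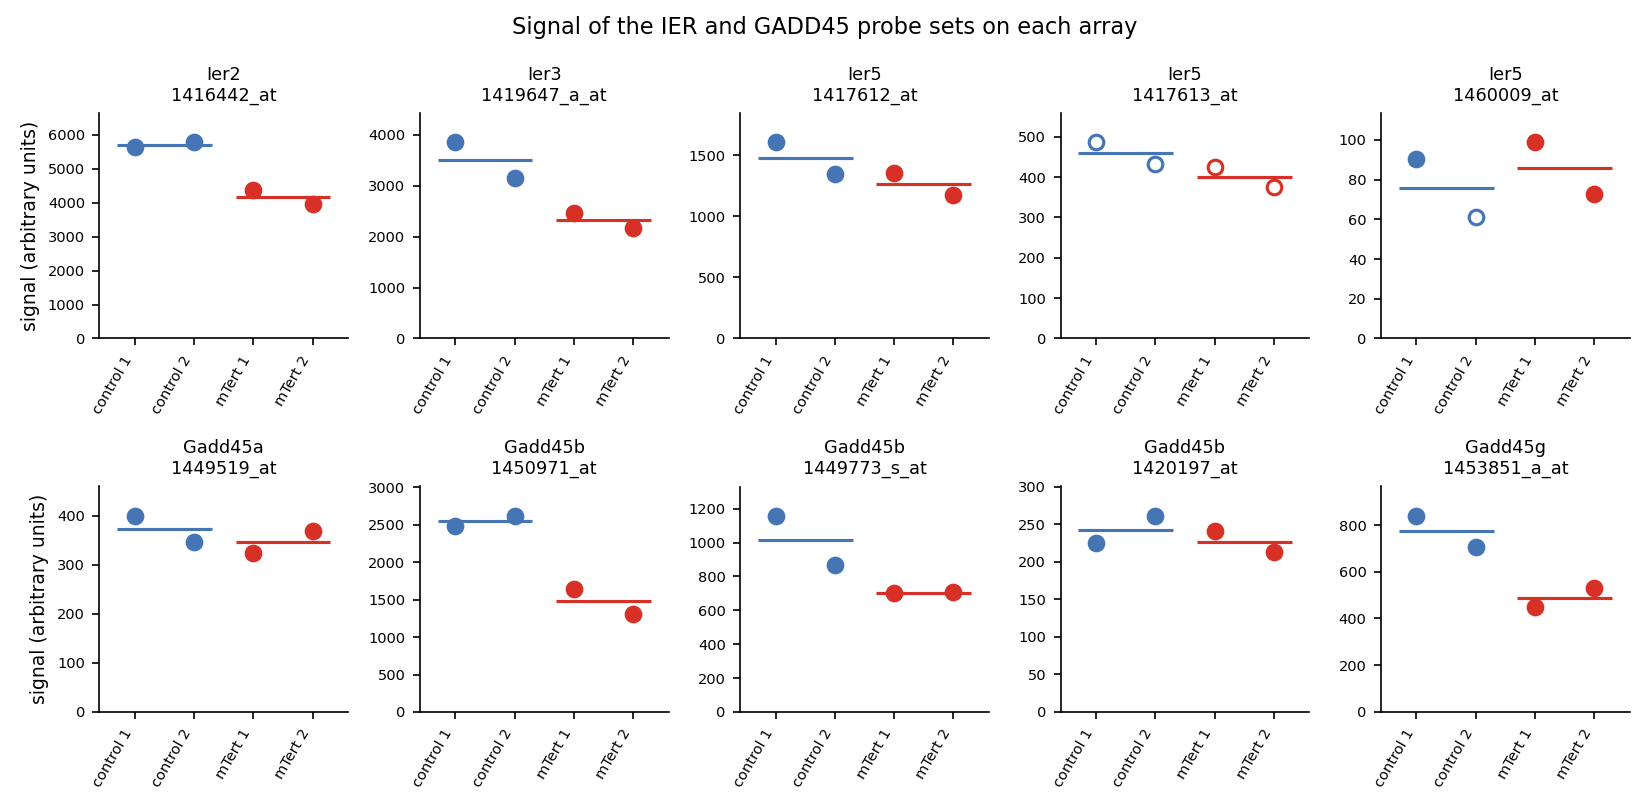
Signal in arbitrary units (vertical axes, each from 0) of all 10 member probe sets on the 4 arrays (horizontal axes); filled points were called present, open points absent, and lines are group means of 2 arrays. The mTert points lie below both control points for Ier2, Ier3, Gadd45g, 2 of the 3 Gadd45b probe sets and the absent Ier5 probe set 1417613_at.

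In 5 of the 9 tested member probe sets, from 4 of the 6 genes, the higher mTert signal lay below the lower control signal. Over all tested probe sets this share was 12.1%. In 0 members was the order the other way round. The tested probe sets with a lower difference numbered 139 for Gadd45b 1449773_s_at and 1078 for Ier5 1417612_at. They numbered 2668 for Gadd45a, 2842 for Gadd45b 1420197_at and 10804 for Ier5 1460009_at. The median difference was -0.456 over the 9 probe sets and 0.0058 over all 12396. Since the genes were chosen on this contrast, the counts and medians describe them and support nothing. Across all tested probe sets limma called 0 (0%) at an adjusted p of 0.05, with 261 at an unadjusted p under 0.05. Tert itself, at 3.25 (SE 0.26), was not called (limma adjusted p = 0.188, the smallest of all). A count of 0 therefore does not show that nothing differed.

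**Figure D2:**
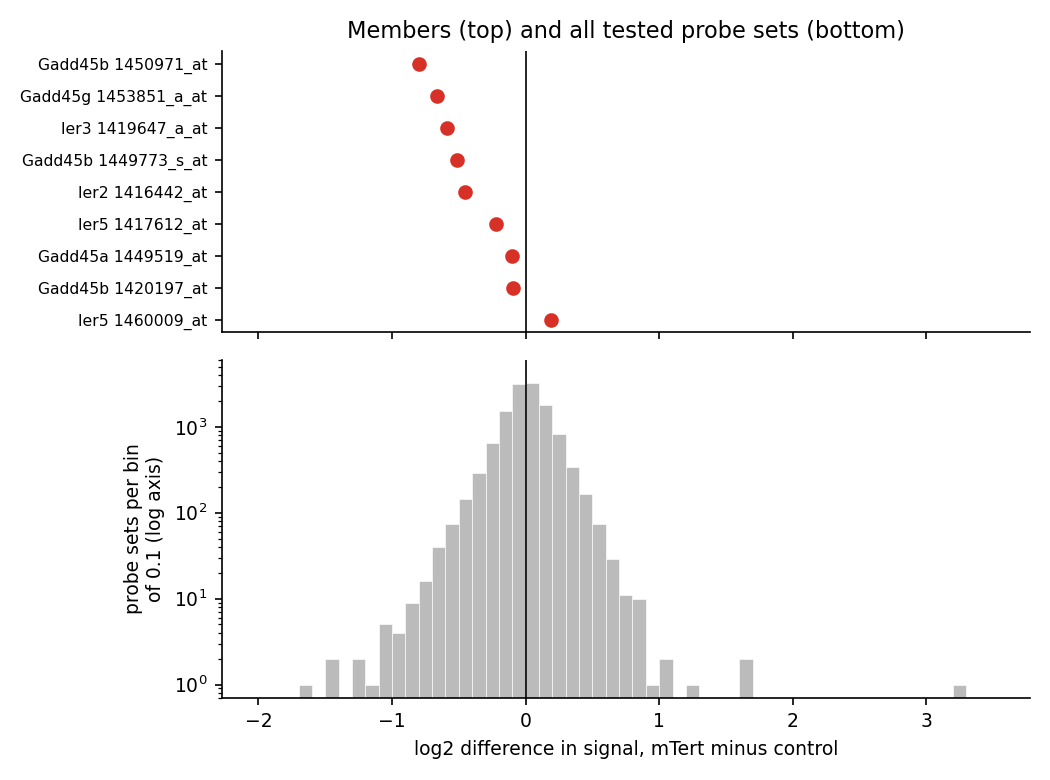
Log2 difference in signal, mTert minus control (horizontal axis), for the 9 tested member probe sets (top, 1 point each) and as a histogram of all 12396 tested probe sets (bottom, counts per bin of 0.1 on a log axis). The points of Gadd45b 1450971_at, Gadd45g and Ier3 lie in the sparse left tail and those of Gadd45a and Gadd45b 1420197_at in the bulk; the bar at the far right is Tert.

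In the 4 pairings of 1 control with 1 mTert array, Gadd45b 1450971_at ran from -1.0 to -0.60, Gadd45g from -0.91 to -0.42, Ier3 from -0.82 to -0.36 and Ier2 from -0.54 to -0.37. For these 4 probe sets the largest difference between the 2 arrays of a group was smaller in size. It was -0.33 for Gadd45b 1450971_at and -0.14 for Ier2 (both mTert 2 minus mTert 1). For Gadd45g it was -0.25 and for Ier3 -0.28 (both control 2 minus control 1). Gadd45b 1449773_s_at ran from -0.72 to -0.30, and its controls differed by -0.41 (control 2 minus control 1), more than its smallest pairing. The genes were chosen on this contrast, so these ranges only describe them. Gadd45a ran from -0.30 to 0.09 over the pairings and Ier5 1417612_at from -0.45 to 0.02, ranges that include values on both sides of 0.

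The spread between arrays numbered 2 and arrays numbered 1 is a contrast that the choice of the genes did not use, as each number holds 1 control and 1 mTert array. The labels do not say what a number stands for. It was fitted with limma over the same 12396 probe sets, with the group as a covariate. Of these, 347 (2.8%) passed an adjusted p of 0.05, 214 higher and 133 lower on number 2, and 0 of the 9 member probe sets passed. The count over all probe sets was 76 without the intensity trend and 192 without the group as covariate. At an unadjusted p under 0.05 there was 1 member, Ier3.

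Ier3 was lower on number 2 in both groups, at -0.23 (SE 0.10), with a limma adjusted p of 0.417. Ier5 1417612_at stood at -0.23 (SE 0.13) and was also lower on number 2 in both groups (limma adjusted p = 0.632). The dim Ier5 probe set 1460009_at had the largest value, -0.50 (SE 0.32), with a limma adjusted p of 0.745. These 3 probe sets were lower on the arrays where the macrophage markers given above were higher (8 of 8 markers, median number difference 1.96), and the part of those cells was not tested.

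Gadd45b 1450971_at stood at -0.13 (SE 0.13), the mean of a slightly higher control 2 and a lower mTert 2 (limma adjusted p = 0.902). For Gadd45g the number difference was -0.003 (SE 0.17), for Gadd45a -0.01 (SE 0.19) and for Ier2 -0.06 (SE 0.09), with limma adjusted p of 0.999, 0.999 and 0.975. An SE of 0.09 to 0.32 leaves room for shifts of that size, so these values do not show that the arrays were alike. The median over the 9 probe sets was -0.127 and that over all tested probe sets 0.0007.

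**Figure D3:**
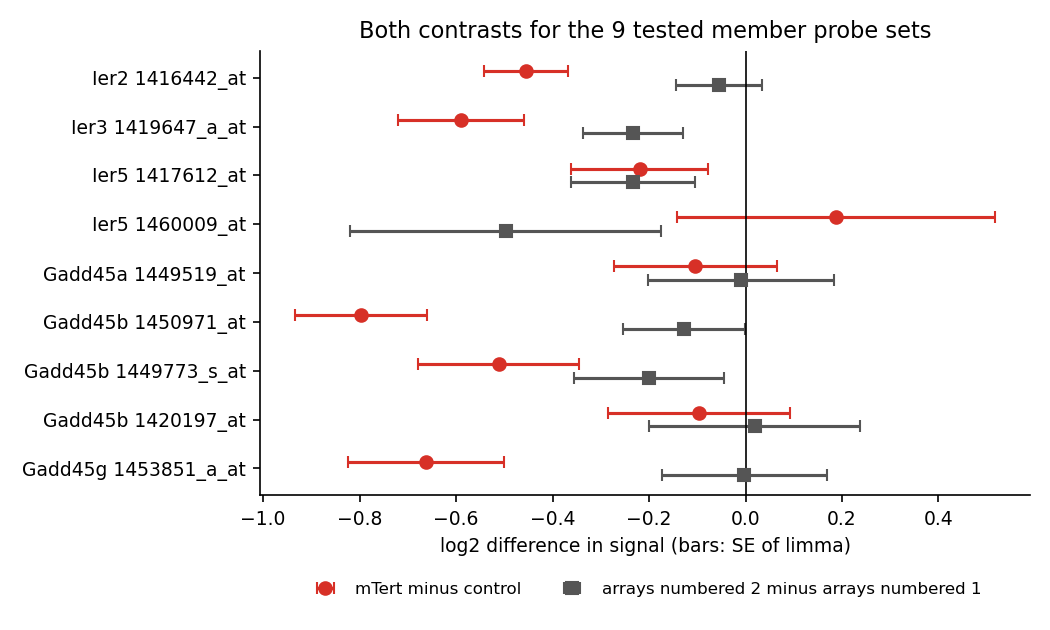
Log2 difference in signal (horizontal axis, bars are the SE of limma) of the 9 tested member probe sets for mTert minus control (circles) and for arrays numbered 2 minus arrays numbered 1 (squares). The circles of Ier2, Ier3, Gadd45b 1450971_at and Gadd45g lie further from 0 than their squares, while for Ier5 both are alike or the square is further out.

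The profiles of the members over the 4 arrays were compared as a description, with no measure of noise. With each probe set centred on its mean over the 4 arrays, the root mean square distance between the brightest tested probe sets of each gene was smallest for Ier2 and Ier3 (0.132 on the log2 scale) and largest for Gadd45a and Gadd45b (0.403). Gadd45g was nearer to Ier3 (0.154) than to Gadd45b (0.240). Gadd45a was nearest to Ier5 (0.153). Probe sets of the same gene differed as well. On control 2 and mTert 2 the centred values were 0.435 and -0.563 for Gadd45b 1450971_at, and 0.050 and -0.250 for 1449773_s_at. The distances therefore cannot tell differing genes from differing probe sets or arrays.

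For the 4 genes whose brightest probe set ranged over at least 0.5, the 3 nearest probe sets of other genes were listed from up to 11420 candidates. With only 4 arrays, such nearness is a description. Nearest to Gadd45b were both probe sets of Btg2, an antiproliferative gene of the immediate early class, at 0.042 and 0.083, and Nr4a1, an orphan nuclear receptor, at 0.065. Btg2 1416250_at read 3064.1 and 3106.2 in control and 1948.7 and 1666.3 in mTert. Nearest to Ier3 were Xiap, an inhibitor of caspases (0.019), which was dim, at 26.7 to 45.6, and present on 2 arrays, Errfi1, a feedback inhibitor of the EGF receptor (0.026), and Smc6 (0.033).

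Nearest to Ier2 were Cd99l2 (0.020), Stmn3 (0.022) and Hes1, a repressor in the Notch pathway (0.027). Hes1 read 4115.6 and 4001.8 in control and 3143.9 and 2840.7 in mTert. Nearest to Gadd45g were Ing2, of the ING family of chromatin readers (0.011), Mphosph8 (0.055) and Eogt (0.088). Ing2 and Mphosph8 were each present on 3 arrays. The probe sets of Eogt (1454678_s_at), Smc6 (1422910_s_at) and Stmn3 (1435113_x_at) are of kinds that can match transcripts of more than 1 gene. Ing2 read 385.8 and 320.1 in control and 202.5 and 238.3 in mTert. All 12 of these probe sets had both mTert signals below both controls, which their likeness to the members fixes.

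**Figure D4:**
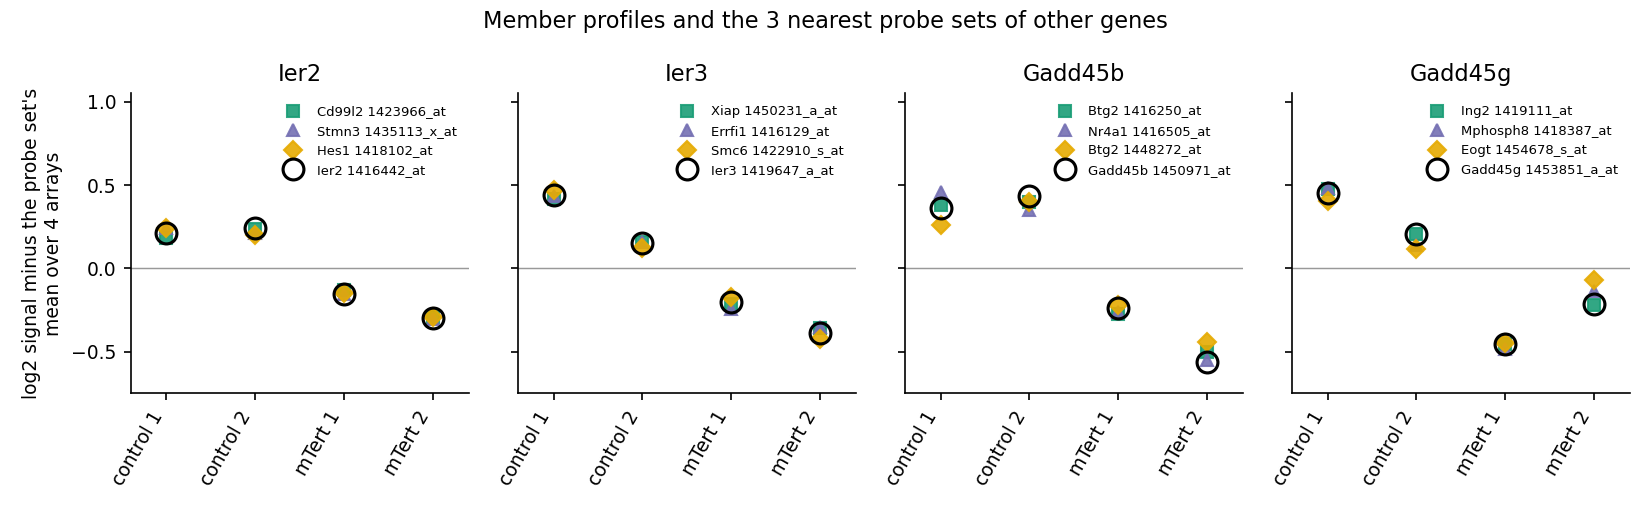
Log2 signal minus the probe set's mean over the 4 arrays (vertical axis) for Ier2, Ier3, Gadd45b and Gadd45g (open circles) and for the 3 nearest probe sets of other genes (filled symbols), by array (horizontal axis). In the Gadd45g panel mTert 1 is the lowest array, and in the other panels mTert 2 is.

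The proteins that work with the members, or switch them on, were read from a list of 46 genes, of which 36 had a tested probe set named by that symbol alone. The brightest probe set of each was used. Of the 36 genes 0 passed in either direction by limma over all probe sets, and 2 had an unadjusted p under 0.05. Both mTert signals lay below both controls in 5 (13.9%), near the 12.1% of all tested probe sets, and above in 2. The mean was lower in mTert in 25 (69.4%), where all tested probe sets gave 48.2%. That share was not tested, and the list was chosen with earlier results of these data known. The list's median was -0.038.

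Among the p38 and JNK pathway kinases that GADD45 proteins bind or that lie below those, 6 of 8 were measured, with a median of -0.046. Map3k4, the kinase that GADD45 proteins bind and activate, stood at -0.18 (SE 0.17), with signals of 241.4 and 256 in control and 217.3 and 221.2 in mTert. Of the 4 cell cycle partners 3 were measured. Pcna stood at -0.04 (SE 0.10) and Cdk1 at 0.19 (SE 0.15), both with overlapping groups. The repair and demethylation partners (6 of 7 measured) had a median of -0.016, and Aurka, a mitotic kinase, stood at 0.23 (SE 0.18).

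Mcl1, an antiapoptotic protein that binds IER3, had the smallest p of the list. It read 5386.2 and 5426.1 in control and 4276.6 and 3912.1 in mTert, a difference of -0.40 (SE 0.09) with a limma adjusted p of 1. All 6 of its tested probe sets had both mTert signals below both controls, with differences between -0.51 and -0.21. The other IER3 partners measured, the PP2A subunits Ppp2ca and Ppp2r5c, stood at -0.08 (SE 0.09) and 0.002 (SE 0.12).

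Dnajb1, a chaperone whose gene is a target of HSF1, the factor that IER5 binds, came next. It read 2360.7 and 2282.1 in control and 1597.1 and 1749.3 in mTert, a difference of -0.47 (SE 0.10) with a limma adjusted p of 1. Its 2 probe sets stood at -0.49 and -0.47. Ppp2r2a, a PP2A subunit, read 1256.4 and 1183.3 in control and 1082 and 1146.5 in mTert, without overlap, at -0.13 (SE 0.11). The other heat shock targets measured did not show such a gap between the groups. Hspa1b stood at -0.18 (SE 0.28), Hsph1 at -0.08 (SE 0.14) and Hspb1 at -0.02 (SE 0.17), with overlapping groups.

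The transcription regulators (10 of 12 measured) had a median of -0.047. Ddit3, the stress factor CHOP, read 928.6 and 951.8 in control and 1043.9 and 1156.4 in mTert, at 0.22 (SE 0.12), and Atf4, which acts above it, stood at -0.13 (SE 0.09). Srf, the factor behind serum induction, stood at 0.02 (SE 0.14), and Rela, an NF-kappaB subunit, at -0.11 (SE 0.11). The relatives of the members by name, Ier5l, Ier3ip1 and Gadd45gip1, stood at -0.08 (SE 0.18), -0.04 (SE 0.12) and 0.08 (SE 0.31), with overlapping groups.

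**Figure D5:**
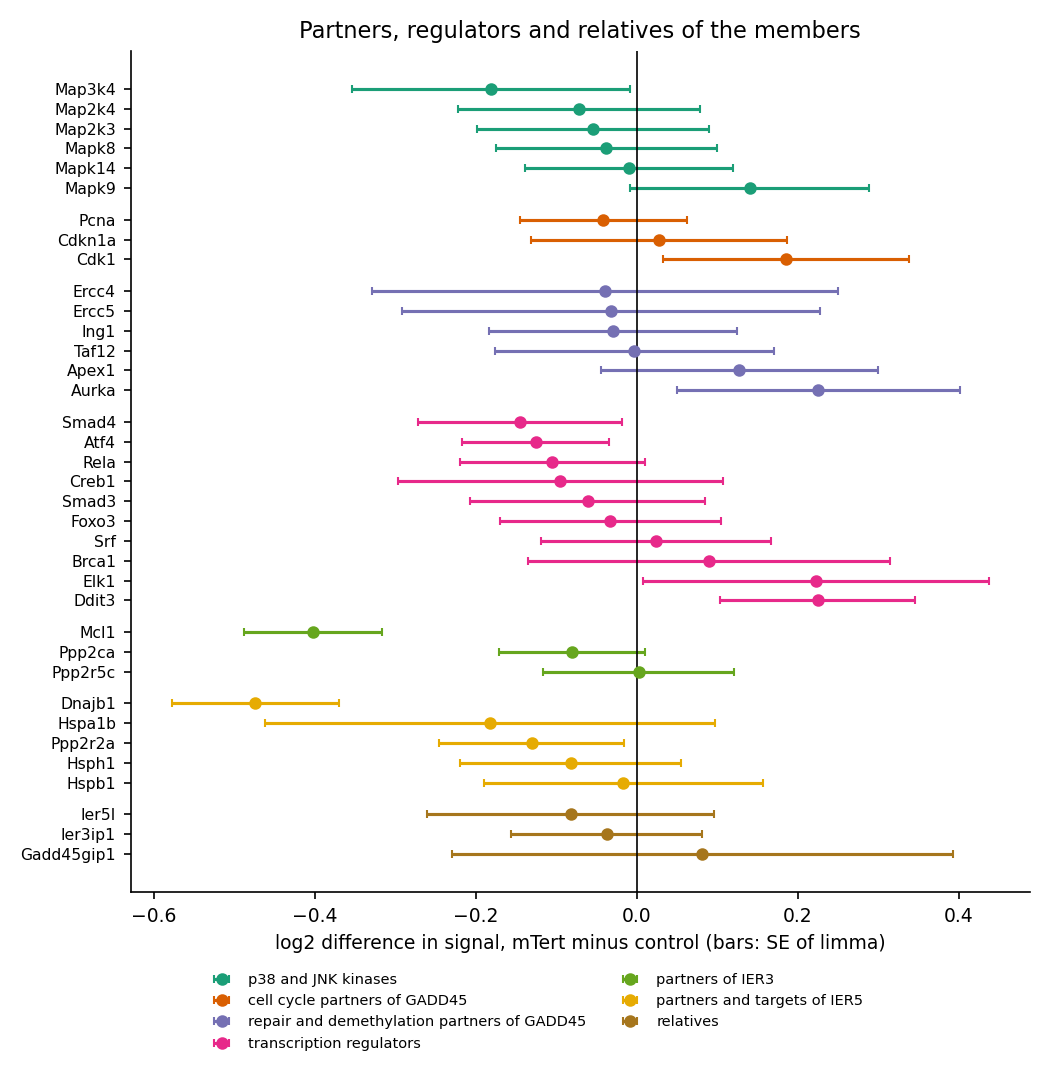
Log2 difference in signal, mTert minus control (horizontal axis, bars are the SE of limma), of the brightest tested probe set of 36 partners, regulators and relatives of the members, coloured by role. Mcl1 and Dnajb1 lie furthest to the left, and the remaining genes lie between -0.18 and 0.23.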

How the data were processed

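The values are those of 22690 probe sets on each array. Per the file headers, the authors deposited a linear signal intensity, a call of present, marginal or absent, and the detection p-value behind the call. Which program summarised the probes, and how, was not stated there. Symbols were taken from the platform annotation held by GEO, where 20380 probe sets carried 1 symbol, 691 carried several and 1555 were not named. Only those with 1 symbol were named here.

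Arrays were brought to the same trimmed mean (2% trimmed at each end, factors between 0.9998 and 1.00017) before log2. A single signal of 0 took the value of the dimmest present probe set on that array. Dropped were the 64 controls and the probe sets present on fewer than 2 arrays. Printed signals are as deposited. limma 3.58.1 (R 4.3.3) was fitted to the 12396 remaining probe sets, with lmFit and eBayes with an intensity-dependent prior, Benjamini-Hochberg adjustment and no replicate term. The number contrast had the group as a covariate. Both fits were run on simulated data with independent noise. The mTert runs held no difference between array numbers, so they do not show how that fit behaves on these arrays. Having 4 arrays limits the precision, and p-values reflect only how these samples vary, which may in part be technical.

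All member probe sets are given. From the partner list, the 6 genes with the smallest p and a set list (Map3k4, Mcl1, Dnajb1, Pcna, Cdkn1a, and Map2k7, Hsf1 and Trp53, which had no tested probe set) were named; other list genes were named after their values were seen. A gene's brightest probe set has the highest mean log2 signal among those tested. The members, lists and motifs were chosen with earlier results of these data known. Alternatives covered scaling, the filter, an added 50, the prior, a replicate block and leaving out each array.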

Additional observations from a re-analysis of the deposited data

How the results depend on the processing

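Of 98 alternative values for the 9 member probe sets in the comparison of mTert with control, 95 kept their sign. The exceptions, each with 1 array left out, were Ier5 1460009_at and Gadd45b 1420197_at, given above. The filters on calls, the replicate block and the prior leave the difference of a probe set unchanged, so their values could not change sign. As the genes were chosen on this contrast, the count only describes them. The median over the members, -0.456, was -0.337 with no filter on calls, which adds the absent Ier5 probe set, and -0.523 with the brightest probe set of each gene. With 1 array left out it lay between -0.506 and -0.306, the latter without control 1. With quantile normalization, median scaling, log2 of the signal plus 50, or probe sets present on all arrays it moved by less than the spread between arrays. The count of probe sets called for mTert against control was 0 in each of these fits and in those with 1 array left out. With the replicate number as a block it was 18, 15 lower and 3 higher in mTert, with 488 at an unadjusted p under 0.05. Deviations of same-numbered arrays from their group means correlated at 0.37, but with 2 pairs and no label on what a number means, pairing is not established. In the number contrast 347 probe sets were called, 76 without the intensity trend and 192 without the group as covariate, and the cause was not tested. Under the other settings run the count lay between 242 (no filter) and 473 (median scaling). No member passed it under any alternative run (smallest limma adjusted p 0.316). Leaving out an array from the number contrast leaves no residual degrees of freedom and was not run as a test. The series table held the same values as the arrays (largest difference 0), so it gave no alternative.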
